A study of Homo sapiens with 4 samples.

Results

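The genes described here are 33 interferon-stimulated and antiviral genes, 33 of the 20457 features in the deposited expression tables. They were chosen by name: a row belongs to the set where its feature name equals 1 of 33 symbols (DDX58 is the older symbol of RIGI, the gene of the RNA sensor RIG-I). Expression was measured by poly(A) RNA sequencing, with a library kit that marks strand, in HEK293 cells, an established human embryonic kidney line that carries integrated adenovirus E1 genes. The control group (siControl, genotype given as WT) received a negative control siRNA, and the other group (siCNOT4) an siRNA against CNOT4, which encodes a RING-type ubiquitin ligase associated with the CCR4-NOT deadenylase complex. Both groups were exposed to 10 nM siRNA for 72 h, with 2 libraries in each. The labels name no interferon, virus or other stimulus beside the siRNA for either group. The comparison thus asks how the levels of these genes differed after CNOT4 knockdown without a named stimulus. Both groups received an siRNA, and whether siRNA itself affected these genes was not tested. Nothing in the labels says that the 2 libraries of a group came from separate transfections, so the p-values measure only the spread between these samples, which may be technical.

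Type I and type III interferons are secreted proteins that bind receptors on the cell surface and activate the kinases JAK1 and TYK2. These phosphorylate STAT proteins, among them STAT2, which joins IRF9 in a complex that binds the interferon-stimulated response element in the promoters of its target genes. The products of those targets sense viral RNA, block entry, translation and release of virus, or feed back on the pathway. Many of them are also transcribed at a low level without added interferon.

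The core of the response element was searched for as GAAANNGAAA, on both strands, in RefSeq promoter windows (build GRCh38.p14, 250 bases before to 50 after a start site). A window was found for 28 of the 33 genes, and 19 of the 28 held at least 1 match; the table holds no window of IFIT2, OAS2, OASL, IFITM2 or IRF7. Of all 35116 windows 3.57% held a match, and of all 27305 genes with a window 4.38% did. The stretches below belong to 4 genes that were lower in both siCNOT4 libraries (ISG15, BST2, IFITM1, IFITM3) and to 4 that were higher in both (IFIT1, OAS3, IFIH1, IFI44). They are shown to let the 2 directions be compared, each read along the gene's own strand with 1 match in capitals. Matches that read TTTC lie on the other strand. The stretches of ISG15, BST2 and IFIT1 each hold a further match that is partly or wholly in small letters.
ISG15, chr1:1013375-1013414, plus strand: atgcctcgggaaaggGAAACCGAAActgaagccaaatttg
BST2, chr19:17405736-17405775, minus strand: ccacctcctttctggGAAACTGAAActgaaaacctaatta
IFITM1, chr11:313985-314024, plus strand: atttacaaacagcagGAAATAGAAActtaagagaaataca
IFITM3, chr11:320871-320910, minus strand: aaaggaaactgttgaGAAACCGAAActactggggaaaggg
IFIT1, chr10:89392492-89392531, plus strand: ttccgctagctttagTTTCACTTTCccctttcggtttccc
OAS3, chr12:112938316-112938355, plus strand: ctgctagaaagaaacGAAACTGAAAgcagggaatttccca
IFIH1, chr2:162318685-162318720, minus strand: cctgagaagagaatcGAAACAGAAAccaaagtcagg
IFI44, chr1:78649756-78649788, plus strand: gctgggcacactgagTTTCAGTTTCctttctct
The match was present in both directions of change: 14 of 21 genes that were higher in both siCNOT4 libraries held it, as did 4 of 4 that were lower in both and 1 of 3 whose groups overlapped. These directions are those of the deposited values, and other scalings, given below, changed some of them. The 21 include OAS1, IFI44L and RSAD2, which were too low to test. A match describes the letters in the window and is not a measured binding site.

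Values are TPM, the reads of a gene divided by its length and scaled so that each library sums to 1000000. Tests used limma on log2(TPM + 1) over the 14208 features with a mean of at least 1 TPM, with Benjamini-Hochberg adjustment over all of them and a threshold of 0.05. Fold changes on this scale understate the change of low genes. The 4 libraries held an estimated 35.1 to 36.7 M counted reads (M, 1e6; read from the size of 1 read in TPM and GENCODE exon lengths). CNOT4 itself was at 6.43 and 4.73 TPM in the siControl libraries and at 3.38 and 3.81 TPM in the siCNOT4 libraries, a log2 difference of -0.51 that did not pass the test as deposited (limma adjusted p = 0.184). It passed after TMM scaling, described below (-0.997, limma adjusted p = 0.0330), after quantile normalization (-1.15, limma adjusted p = 0.0252) and after removal of a gene length trend (-1.22, limma adjusted p = 0.0111). The distribution of all genes differed between the groups: 81.2% of tested genes had a positive log2 difference, siCNOT4 minus siControl, and the median was 0.50. The 2 siControl libraries also differed from each other, with a median log2 difference of 0.38 and an SD over genes of 0.477, against -0.03 and 0.202 for the 2 siCNOT4 libraries. Scaling by trimmed means (TMM) moved the median of all genes to -0.05, a shift of about the size of the median itself, so values after that scaling are given beside the results whose direction or call it changes.

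Of the 33 genes, 27 passed the filter on low values. IFI44, at a mean of 0.370 TPM in siControl, passed it only through its siCNOT4 values, which favours a call as higher. OAS3, IFIH1, IRF7, MX1 and IFI44 rose and no gene fell: 5 of 27 (18.5%) passed the test as higher in siCNOT4, where 11.3% of all tested genes did, and 0 of 27 as lower, where 1.3% of all did. At an unadjusted limma p under 0.05, 13 were higher and 2 lower, where 38% and 4% of all tested genes were. The median log2 difference over the 27 genes was 0.65, against 0.50 over all tested genes, and 16 of the 27 lay above the median of all genes. After TMM scaling, 1 of 26 was called higher (3.85%, against 3.96% of all genes) and 3 of 26 lower (11.5%, against 5.75% of all genes), and the medians were 0.11 and -0.05. The gene called higher under both scalings was OAS3; the 3 called lower were ISG15, IFITM1 and IFITM3. Every library moved the count of calls when left out: 24 of 27 genes were called without siControl 1 (79.6% of all tested genes were) and 21 without siControl 2 (57.5% of all). Without siCNOT4 1 the calls were OAS3 and IFI44 (3.35% of all genes) and without siCNOT4 2 OAS3 alone (3.17% of all). IFIH1, IRF7 and MX1 thus lost the call when either siCNOT4 library was left out. The lone library of a group is then assumed to vary like the other group. With 2 libraries a group, an exact permutation test of a single gene cannot go below p = 0.333.

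Counted by libraries rather than by the test, 19 of 27 genes (70.4%) had both siCNOT4 values above both siControl values, where 66.4% of all tested genes did. Both siCNOT4 values lay below both siControl values for 4 of 27 (14.8%), where 10.6% of all genes did. After TMM scaling the counts were 13 of 26 above (50%, against 31.3% of all genes) and 7 of 26 below (26.9%, against 38.5% of all genes). Summed over the 33 genes, expression was 300.3 and 249.3 TPM in the siControl libraries and 338.5 and 360.9 TPM in the siCNOT4 libraries. After TMM scaling the order turned, with sums of 316.3 and 359.9 in siControl and 278.5 and 288.5 in siCNOT4. In bulk RNA, fewer cells expressing a gene and less of its RNA per cell cannot be told apart.

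**Figure D1:**
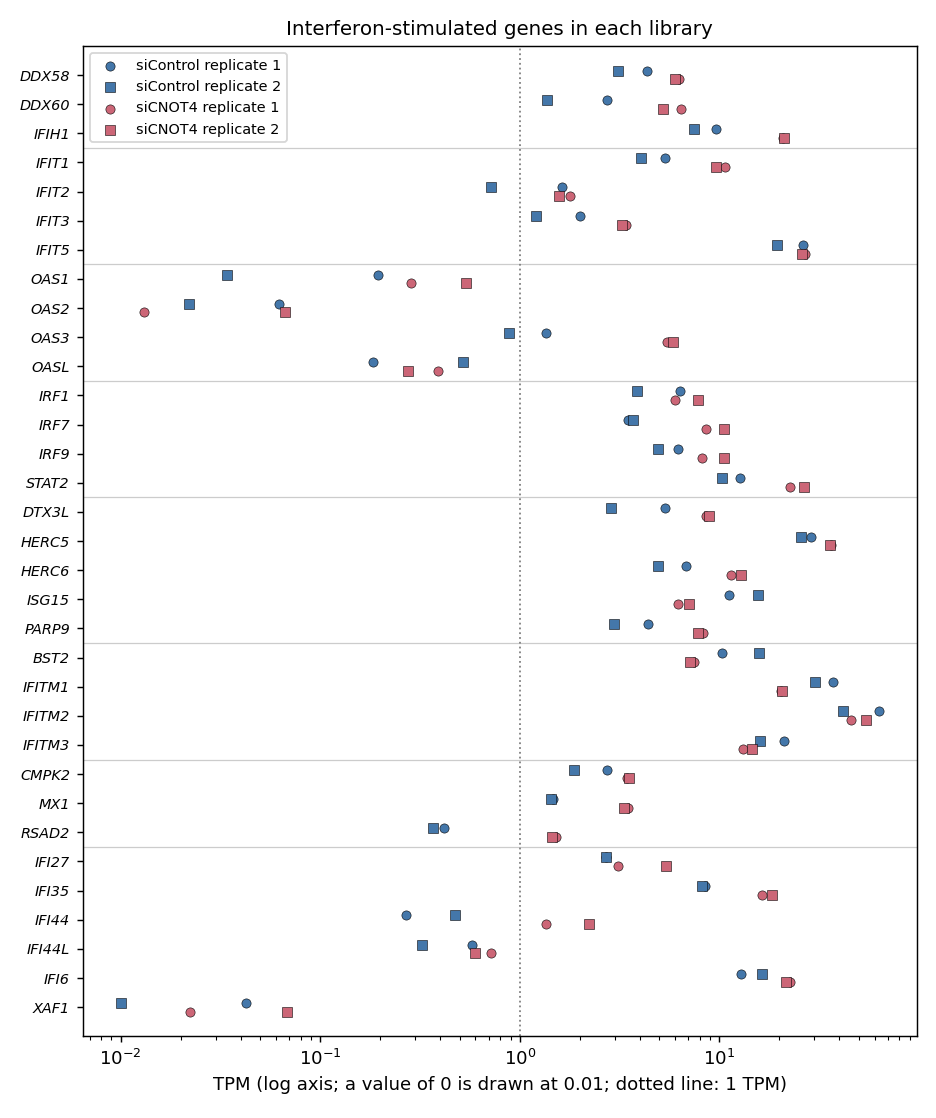
TPM of the 33 genes in each library on a log axis, with the 2 siControl and the 2 siCNOT4 libraries as separate points. OAS3 has the widest gap among the genes called by the test, at 1.36 and 0.882 TPM against 5.50 and 5.87 TPM, and ISG15, BST2, IFITM1 and IFITM3 have both siCNOT4 points below both siControl points.

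The oligoadenylate synthetases are sensors of double-stranded RNA that make short adenosine chains as a second messenger. OAS3, the largest of them, was at 1.36 and 0.882 TPM in siControl and at 5.50 and 5.87 TPM in siCNOT4. The groups did not overlap, and the counting intervals of the libraries did not either: the highest upper bound in siControl was 1.63 TPM and the lowest lower bound in siCNOT4 was 5.01 TPM (exact Poisson, 95%, counting error only). The ratio of mean TPM was 5.07 and the log2 difference 1.66 (SE 0.23, limma adjusted p = 0.0235). It passed the test under every alternative in which it was tested (the minimum of 5 TPM removed it), the limma adjusted p reaching 0.0466 at most, and its log2 difference was 1.25 after TMM scaling (limma adjusted p = 0.0296). OAS1 and OAS2, the other enzymes of the family, and OASL, a relative without synthetase activity, were too low to test. OAS1 rested on at least 5, 1, 7 and 13 reads, OAS2 on at least 5, 2, 1 and 5, and OASL on at least 5, 16, 10 and 7, in the order siControl 1 and 2, siCNOT4 1 and 2. These are the smallest whole read numbers that fit the TPM values. For none of these low synthetases does the depth allow a difference to be read.

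Among the cytoplasmic RNA sensors, IFIH1, which encodes MDA5, was at 9.69 and 7.44 TPM in siControl and at 21.0 and 21.1 TPM in siCNOT4. The siCNOT4 values lay close together and above both controls, with a ratio of means of 2.46 and a log2 difference of 1.21 (SE 0.27, limma adjusted p = 0.0439). After TMM scaling the log2 difference was 0.65 and no longer passed (limma adjusted p = 0.0547). DDX58, which encodes the related sensor RIG-I, was at 4.36 and 3.10 TPM against 6.25 and 5.98 TPM. Its groups did not overlap, yet the log2 difference of 0.60 did not pass the test (limma adjusted p = 0.137) and was -0.04 after quantile normalization. DDX60, a helicase linked to RIG-I signalling, was at 2.73 and 1.37 TPM against 6.46 and 5.23 TPM, a log2 difference of 1.20 (SE 0.30, limma adjusted p = 0.0513).

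Of the transcription factors, IRF7, which drives interferon gene transcription after infection, rose. It was at 3.50 and 3.69 TPM in siControl and at 8.57 and 10.6 TPM in siCNOT4. The 2 control libraries were nearly equal and both siCNOT4 libraries lay above them, with a log2 difference of 1.20 (SE 0.27, limma adjusted p = 0.0439). After TMM scaling it was 0.68 (limma adjusted p = 0.0919). STAT2, the signal transducer of the pathway, was at 12.7 and 10.3 TPM against 22.7 and 26.5 TPM, a log2 difference of 1.04 (SE 0.26) just outside the threshold (limma adjusted p = 0.0519). IRF9, its DNA-binding partner, was at 6.21 and 4.94 TPM against 8.16 and 10.6 TPM (log2 difference 0.65, limma adjusted p = 0.135). IRF1 overlapped between groups, at 6.34 and 3.88 TPM against 6.0 and 7.82 TPM, and its log2 difference of 0.39 turned to -0.12 after TMM scaling.

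The IFIT proteins bind viral RNA and hinder its translation, and the 4 family members differed in how far apart their groups were. IFIT1, which recognises RNA with an incompletely methylated cap, was at 5.32 and 4.05 TPM in siControl and at 10.7 and 9.66 TPM in siCNOT4. The groups did not overlap, and the log2 difference of 0.98 (SE 0.28) did not pass the test (limma adjusted p = 0.0609). IFIT3, which stabilises IFIT1, was at 2.01 and 1.21 TPM against 3.41 and 3.26 TPM (log2 difference 0.75, limma adjusted p = 0.0737). IFIT2 was at 1.63 and 0.720 TPM against 1.79 and 1.57 TPM, and IFIT5 at 26.3 and 19.5 TPM against 26.9 and 26.1 TPM. In IFIT2 the second siCNOT4 library lay below the first siControl library, and in IFIT5 likewise. Their log2 differences of 0.33 and 0.22 did not keep a positive sign: IFIT2 was at -0.30 after quantile normalization and IFIT5 at -0.36 after TMM scaling.

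MX1, a dynamin-like GTPase that traps viral nucleocapsids, was at 1.48 and 1.43 TPM in siControl and at 3.51 and 3.32 TPM in siCNOT4. Replicates agreed closely in both groups and the groups did not overlap, with a ratio of means of 2.35 and a log2 difference of 0.85 (SE 0.20, limma adjusted p = 0.0475). After TMM scaling the log2 difference was 0.43 (limma adjusted p = 0.146). RSAD2, which encodes viperin, an enzyme that makes a chain-terminating nucleotide, fell under the filter and has no test. It was at 0.418 and 0.368 TPM in siControl and at 1.52 and 1.45 TPM in siCNOT4, a ratio of means of 3.78, on at least 19, 19, 66 and 62 reads. CMPK2, a nucleotide kinase gene next to RSAD2, was at 2.73 and 1.87 TPM against 3.46 and 3.52 TPM, and its log2 difference of 0.46 turned to -0.19 after quantile normalization.

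ISG15 went the other way. This gene encodes a ubiquitin-like protein that is conjugated to viral and host proteins and is strongly induced by interferon. It was at 11.2 and 15.6 TPM in siControl and at 6.21 and 7.02 TPM in siCNOT4. Both siCNOT4 libraries lay below both controls, on at least 97, 153, 51 and 57 reads, and the ratio of means was 0.492. The log2 difference was -0.91 (SE 0.29, limma adjusted p = 0.0769), or -1.41 relative to the median of all genes. It did not pass as deposited and did pass after TMM scaling (-1.45, limma adjusted p = 0.0491), after quantile normalization (-1.49, limma adjusted p = 0.0413) and after removal of a gene length trend (-0.97, limma adjusted p = 0.0130). Over the 7 alternatives that keep all libraries its adjusted p ran from 0.013 to 0.137.

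No other gene of ISG15 conjugation passed the test as lower, as deposited or after TMM scaling. HERC5, its main ligase, was at 28.8 and 25.7 TPM in siControl and at 36.4 and 35.9 TPM in siCNOT4 (log2 difference 0.39, limma adjusted p = 0.192), and this turned to -0.19 after TMM scaling. HERC6, a relative of HERC5, was at 6.81 and 4.91 TPM against 11.5 and 12.8 TPM (log2 difference 0.95, limma adjusted p = 0.0688). UBE2L6, the conjugating enzyme, was at 15.4 and 14.5 TPM against 23.3 and 22.9 TPM (log2 difference 0.60, limma adjusted p = 0.113), and its groups overlapped after TMM scaling (0.02). USP18, the protease that removes ISG15, overlapped between groups (24.2 and 15.7 TPM against 24.0 and 23.9 TPM), and its log2 difference of 0.28 turned to -0.29 after TMM scaling. UBA7, the activating enzyme, was too low to test, at 0.0978 to 0.371 TPM over the 4 libraries. Only USP16 of the 5 tested genes on the list of conjugation genes was called as deposited, as higher (log2 difference 0.86, limma adjusted p = 0.0439), where 11.3% of all tested genes were. None of the 5 was called after TMM scaling, at an adjusted or an unadjusted limma p under 0.05 (USP16 0.26, limma adjusted p = 0.248). After removal of a length trend the ligase gene ARIH1, named after its values were seen, was called lower (-0.51, limma adjusted p = 0.0404).

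**Figure D2:**
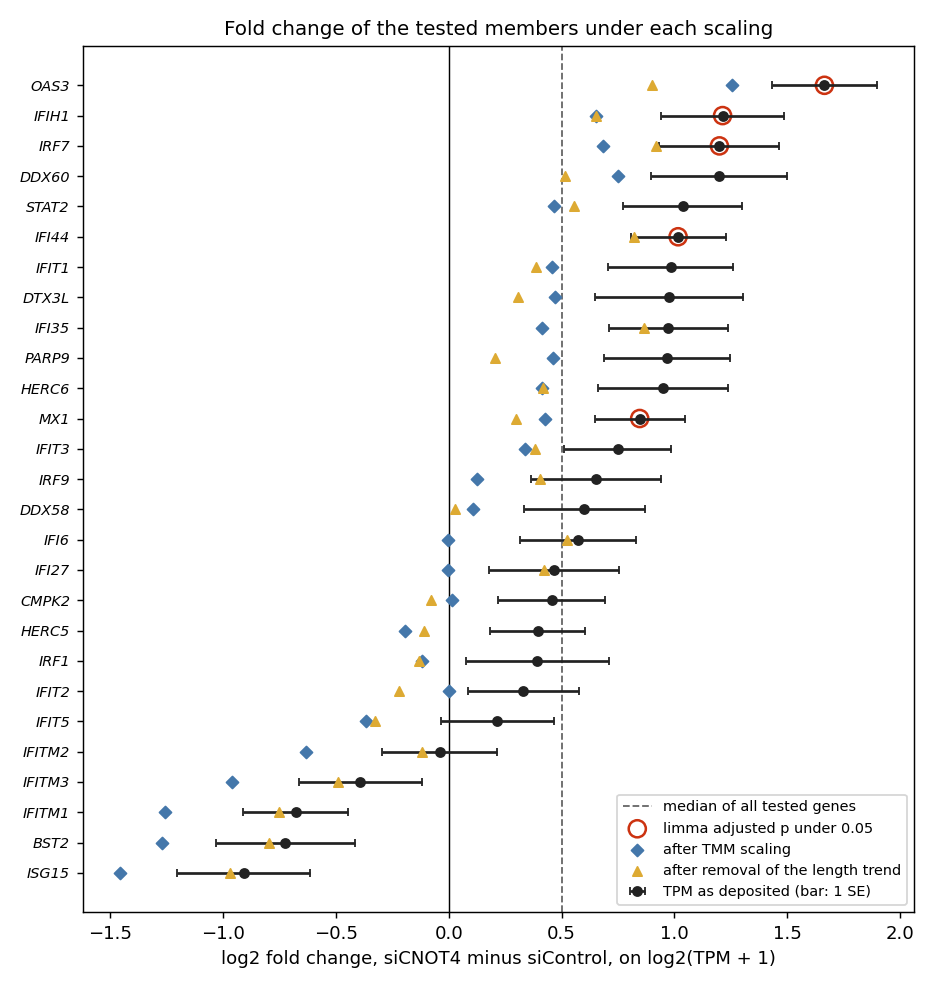
Log2 difference in TPM + 1, siCNOT4 minus siControl, of the 27 tested genes with standard errors, with TMM-scaled values (diamonds) and values after removal of the length trend (triangles); circles mark the genes called as deposited and the dashed line the median of all tested genes as deposited. ISG15 stands at -0.91 and OAS3 at 1.66 as deposited, with an all-gene median of 0.50.

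The small membrane proteins that act on virus entry and release were the other genes with lower values. IFITM1, which hinders fusion of viral and cell membranes, was at 37.0 and 30.2 TPM in siControl and at 20.3 and 20.7 TPM in siCNOT4. Both siCNOT4 libraries lay below both controls, and the log2 difference of -0.68 (SE 0.23) missed the threshold as deposited (limma adjusted p = 0.0846) and passed it after TMM scaling (-1.26, limma adjusted p = 0.0296). IFITM3, its paralog in endosomes, was at 21.1 and 16.1 TPM against 13.1 and 14.6 TPM, with a log2 difference of -0.39 as deposited (limma adjusted p = 0.293) and -0.96 after TMM scaling (limma adjusted p = 0.0329). IFITM2 overlapped between groups, at 62.9 and 41.8 TPM against 45.7 and 54.4 TPM. After TMM scaling both siCNOT4 values of IFITM2 lay below both siControl values, without passing the test (-0.63, limma adjusted p = 0.0607). The IFITM genes are close paralogs, so how reads were divided between them is uncertain. BST2, which encodes tetherin and holds budding virus at the cell surface, was at 10.3 and 15.8 TPM in siControl and at 7.51 and 7.16 TPM in siCNOT4. Its groups did not overlap, and the log2 difference of -0.72 (SE 0.31) did not pass as deposited (limma adjusted p = 0.127) or after TMM scaling (-1.27, limma adjusted p = 0.0707).

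Among the genes named for interferon induction, IFI44, a cytoplasmic protein with antiviral activity, rose from a low level. It was at 0.268 and 0.473 TPM in siControl and at 1.36 and 2.23 TPM in siCNOT4, on at least 6, 12, 29 and 47 reads. The groups did not overlap (log2 difference 1.02, SE 0.21, limma adjusted p = 0.0406). With group means of 0.370 and 1.80 TPM, IFI44 reached the filter of 1 TPM only through the siCNOT4 libraries, which favours a call as higher. After TMM scaling the gene fell under the filter. Its neighbour IFI44L was at 0.578 and 0.324 TPM against 0.717 and 0.60 TPM, and was not tested; its groups overlapped after TMM scaling. IFI35, a partner of NMI, was at 8.52 and 8.16 TPM in siControl and at 16.4 and 18.3 TPM in siCNOT4 (log2 difference 0.97, SE 0.26, limma adjusted p = 0.0576). IFI6 was at 12.9 and 16.4 TPM against 22.6 and 21.6 TPM, and IFI27 at 2.72 and 2.71 TPM against 3.11 and 5.41 TPM. In both genes the siCNOT4 values lay above the siControl values as deposited, yet the log2 differences of 0.57 and 0.47 did not pass the test and were -0.002 and -0.003 after TMM scaling. PARP9 and DTX3L, whose proteins form a complex that acts in interferon signalling, gave log2 differences of 0.97 and 0.98 (limma adjusted p = 0.0638 and 0.0815). XAF1, an interferon-induced antagonist of an apoptosis inhibitor, was not tested, on at least 2, 0, 1 and 3 reads.

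The log2 differences of these genes followed gene length. Exon lengths from GENCODE were matched to 92.0% of all tested genes and to all 27 tested genes of the set. They may not be the lengths behind the TPM values, which are not given in the sources used here. Lengths implied by the smallest read numbers differed for some genes, such as IFITM3 (668 against 1212 nt) and STAT2 (4552 against 3392 nt). For others, such as IFI6 (860 against 865 nt), they were close. Across the 27 genes, the Spearman correlation between the log2 difference and exon length was 0.551, against 0.369 across 13073 tested genes; genes of one library share its depth and composition, so these are descriptions. The 2 siControl libraries differed from each other with length as well, with a Spearman correlation of 0.621 over the 27 genes and 0.596 over all genes. ISG15 and BST2 were lower in the first than in the second siControl library, by log2 differences of -0.44 and -0.57. Between the siCNOT4 libraries the Spearman correlation was 0.507 and 0.168. With a boundary of 1500 nt, chosen after the values were seen, the 8 shorter genes had a median of -0.22 and included ISG15 (941 nt), BST2 (1019 nt), IFITM1 (1041 nt) and IFITM3 (1212 nt). The 19 longer genes had a median of 0.95, and all 19 had a positive difference, where 84.0% of all longer genes did. Of the 8 shorter genes 3 had a positive difference, where 60.4% of all shorter genes did. Over all genes the medians were 0.14 for the 1534 shorter and 0.54 for the 11539 longer ones.

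When a length trend was removed from each library, the length relation fell to a Spearman correlation of 0.189 over the 27 genes and the 5 genes called as deposited and the 4 lower genes kept their direction. Of the 27, 10 were then called, 7 as higher (12.7% of all genes were) and 3 as lower (13.5% of all genes). The 7 higher ones were OAS3 (0.90), IRF7 (0.92), IFI35 (0.87), IFI44 (0.82), IFIH1 (0.65), STAT2 (0.56) and IFI6 (0.52). The 3 lower ones were ISG15 (-0.97), BST2 (-0.79) and IFITM1 (-0.75), with limma adjusted p of 0.0130, 0.0281 and 0.0297. MX1 was no longer called, at 0.30 (limma adjusted p = 0.30). What part RNA or library quality has in the length relation was not tested.

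**Figure D3:**
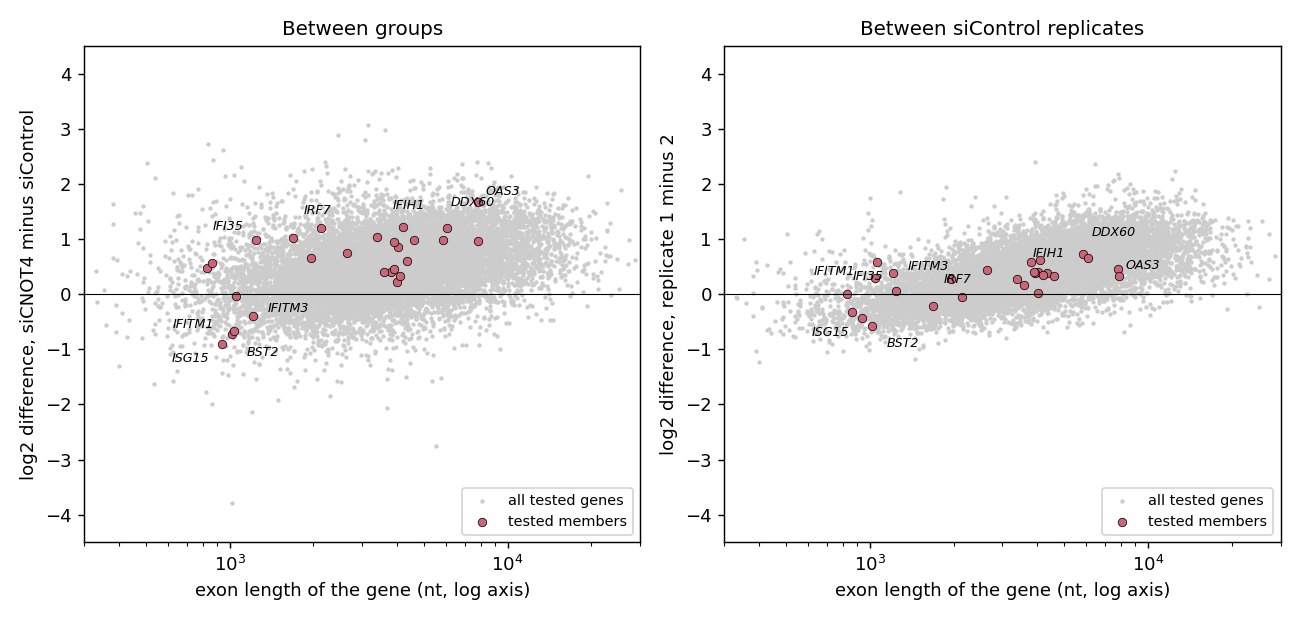
Log2 difference in TPM + 1 against exon length in nucleotides (log axis), for siCNOT4 minus siControl and for the first minus the second siControl library, with the 27 tested genes over all tested genes; a few genes lie outside the axis limits. The Spearman correlation over the 27 genes is 0.551 in the first panel and 0.621 in the second.

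Other genes of the pathway were read from 6 lists, which hold 119 genes outside the set; 114 were found and 80 tested. Of the 80, 18 rose (22.5%, where 11.3% of all tested genes did) and none fell. After TMM scaling 5 were called higher, where 3.96% of all genes were, and 3 lower, where 5.75% of all were. The 3 lower ones, named after their values were seen, were PTPN2 (-1.37), TMEM173 (-1.13) and LY6E (-0.98), with limma adjusted p of 0.0305, 0.0318 and 0.0480. The number of calls among these genes depended on which library was left out, as it did over all genes. The list of other interferon-stimulated genes held 10 of the 18, out of 30 tested, with a median of 0.83. SAMD9, a restriction factor of poxviruses, was at 1.39 and 0.486 TPM in siControl and at 8.31 and 9.02 TPM in siCNOT4 (log2 difference 2.36, limma adjusted p = 0.0228). Its siControl mean of 0.935 TPM was under the filter, which it passed through its siCNOT4 values. SP110, a nuclear body protein, was at 6.17 and 4.58 TPM against 25.2 and 24.6 TPM (log2 difference 2.04, limma adjusted p = 0.0234). TRIM5, a capsid-binding restriction factor, was at 8.46 and 5.04 TPM against 23.4 and 23.4 TPM (log2 difference 1.69, limma adjusted p = 0.0335). NMI, the partner of IFI35, was at 2.92 and 4.32 TPM against 15.4 and 15.1 TPM (log2 difference 1.84, limma adjusted p = 0.0259), which TMM scaling moved to 1.30 (limma adjusted p = 0.0542). The others called were SLFN5 (1.90), APOL2 (1.33), TRIM21 (1.20), TDRD7 (1.19), TRIM38 (1.12) and TRIM56 (1.12). Of the 10, SAMD9, SP110, TRIM5 and SLFN5 were also called after TMM scaling, and the other genes were not.

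Upstream of the set, interferon transcripts were at or near 0. IFNA2 and IFNG had no reads in any library, which allows up to 3 reads in each (counting error only). IFNE rested on at least 4, 1, 5 and 6 reads, and IFNL1 on at least 0, 1, 3 and 2. IFNL2 and IFNL3, near-identical copies, had none in siControl and at least 1 in each siCNOT4 library. IFNB1 was not among the features analysed here. The receptor gene IL10RB rose as deposited (log2 difference 0.96, limma adjusted p = 0.0436) and was not called after TMM scaling (0.36, limma adjusted p = 0.136). IFNAR1 was at 31.4 and 18.7 TPM against 53.5 and 52.6 TPM (log2 difference 1.10, limma adjusted p = 0.0533) and IFNAR2 gave 0.61 (limma adjusted p = 0.116), with overlapping groups after TMM scaling (0.02). Of 12 tested JAK-STAT genes, JAK1 was the 1 called as deposited, as higher, where 11.3% of all tested genes were. JAK1 was at 50.6 and 23.6 TPM in siControl and at 98.7 and 92.7 TPM in siCNOT4 (log2 difference 1.44, SE 0.35, limma adjusted p = 0.0488). The 2 siControl libraries were far apart for JAK1, while both siCNOT4 libraries lay above them. After TMM scaling JAK1 was not called (0.85, limma adjusted p = 0.0766). The phosphatase gene PTPN2 was then the 1 called, as lower (-1.37), where 5.75% of all genes were. The kinase gene TYK2 gave 0.44 (limma adjusted p = 0.240), or -0.13 after TMM scaling.

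Among the genes of nucleic acid sensing, the adaptor MYD88 was called as higher (log2 difference 0.75, limma adjusted p = 0.0436) and lost the call after TMM scaling (0.44, limma adjusted p = 0.119). With means of 0.605 TPM in siControl and 1.70 TPM in siCNOT4, MYD88 passed the filter of 1 TPM only through siCNOT4. The kinase TBK1 gave 1.11 (limma adjusted p = 0.0688), the adaptor MAVS 0.55 (limma adjusted p = 0.132) and the factor IRF3 0.01 (limma adjusted p = 0.976). After TMM scaling MAVS turned to -0.04 and IRF3 to -0.58. EIF2AK2, which encodes the RNA-activated kinase PKR, was at 27.0 and 12.8 TPM against 50.8 and 44.7 TPM (log2 difference 1.31, limma adjusted p = 0.0593). In MHC class I presentation, another interferon-responsive group, 3 of 13 tested genes rose as deposited, where 11.3% of all tested genes did. They were HLA-B (0.97, limma adjusted p = 0.0413), the peptide-trimming enzyme ERAP2 (1.25, limma adjusted p = 0.0396) and the transactivator NLRC5 (1.13, limma adjusted p = 0.0379). The median of the 13 was 0.39, against 0.50 over all tested genes. None of the 13 was called after TMM scaling, where HLA-B was at 0.38, ERAP2 at 0.67 and NLRC5 at 0.77 (limma adjusted p = 0.244, 0.0537 and 0.0524). At an unadjusted limma p under 0.05 after that scaling, 3 were higher and 2 lower, where 2182 and 2941 of all 14117 genes were. B2M, the light chain of MHC class I, did not pass (0.01) and was at 521 and 557 TPM against 545 and 538 TPM, a log2 difference that was -0.60 after TMM scaling.

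**Figure D4:**
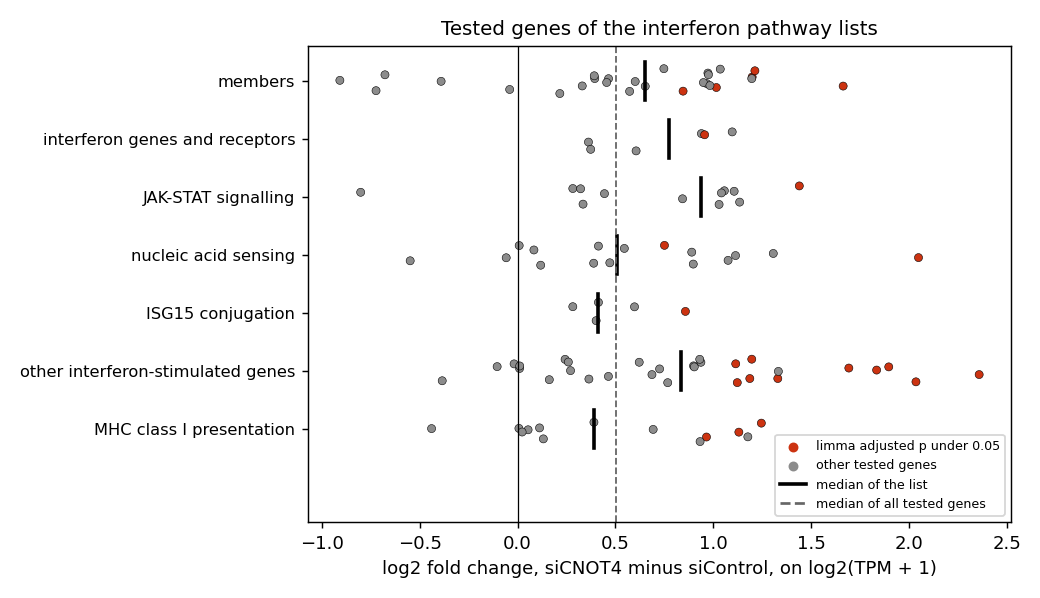
Log2 difference in TPM + 1, siCNOT4 minus siControl, of each tested gene in the set and in the 6 pathway lists, with the median of each list and of all tested genes. The set's median is 0.65 and that of the other interferon-stimulated genes 0.83, against 0.50 for all genes.

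Markers of the cells were read beside these values. The line's markers VIM, KRT8, KRT18 and NEFL were expressed. The list of line markers also held NEFM, PAX2 and LHX1, and 6 of the 7 were tested. Of these 6, 3 had both siCNOT4 values above both siControl values, where 66.4% of all tested genes did. For 2 both values lay below, where 10.6% of all did. VIM, the 1 called, fell from 917 and 650 TPM to 369 and 354 TPM (log2 difference -1.09, limma adjusted p = 0.0288). Blood and immune markers, 10 of 11 found, summed to 31.6 and 23.2 TPM in siControl and 28.5 and 26.7 TPM in siCNOT4, nearly all of it CD68, with HBB at 0 in all libraries. The 8 fibroblast and endothelial markers summed to 2.51 and 1.64 TPM against 10.1 and 10.4 TPM. Only COL1A1 and LUM were tested, and both were called higher, where 11.3% of all tested genes were. Their log2 differences were 1.67 and 1.80 (limma adjusted p = 0.0248 and 0.0228). Together they summed to 1.58 and 1.13 TPM in siControl against 8.84 and 9.27 TPM in siCNOT4. Their pass of the filter thus rested largely on siCNOT4, which favours a call as higher. COL1A2 was at 0.0152 TPM or less. The part of these marker differences in the values of the interferon-stimulated genes was not tested.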

How the data were processed

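The authors deposited TPM values per gene for each library. Per the submitters' processing notes, FastQC 0.11.2, STAR 2.5.3a, featureCounts and build hg19 were used; the annotation, gene lengths and strand setting are not given in the sources used here. Differences were tested with limma 3.58.1 in R 4.3.3 on log2(TPM + 1), over genes with a mean of at least 1 TPM, with all 4 libraries, no covariates and Benjamini-Hochberg adjustment; the fit was tested on simulated data. Ratios of TPM between libraries gave whole reads for 4068 of 4068 low-value features tested (tolerance 0.001), used for counting precision only and not for a count test. Named were all 33 genes, every called gene of the pathway lists, 15 pathway genes fixed by name and CNOT4; some of these are not reported here. The set and the lists were chosen with earlier results of these data known. Alternatives were a pseudocount of 0.1, no filter, a mean of at least 5 TPM, TMM scaling (30% and 5% trims, unweighted), quantile normalization, removal of a length trend (lowess span 0.3), a replicate block and leaving out each library.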

Additional observations from a re-analysis of the deposited data

How the results depend on the processing

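Of the 27 tested genes, 5 passed the test with limma as deposited, 4 after TMM scaling, 4 after quantile normalization and 10 after removal of the length trend. With no filter 2 passed, with a pseudocount of 0.1 1 passed, and with a mean of at least 5 TPM 0 of 18 did. At an unadjusted limma p under 0.05, 10 of these 18 passed, 8 higher and 2 lower, where 3964 and 512 of all 11395 genes were. Of all genes 1792 were called as deposited, 1371 of 14117 after TMM scaling and 2179 of 14208 after quantile normalization. Under length removal, no filter, pseudocount 0.1 and the 5 TPM minimum the counts over all genes were 3415, 908, 558 and 147. The 18 calls among other pathway genes became 8 with TMM, 29 with length removal, 7 with pseudocount 0.1 and 3 with the 5 TPM minimum. The median of the set was 0.65 and moved to 0.11 with TMM, 0.31 with length removal and 0.023 with quantile normalization.

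Leaving out single libraries gave 1 to 24 calls in the set, 450 to 11311 over all genes and 1 to 67 among other pathway genes, with medians of the set from 0.53 to 0.80. Without siControl replicate 1 there were 24 calls in the set, without siControl replicate 2 21, without siCNOT4 replicate 1 2 and without siCNOT4 replicate 2 1; the lone library is assumed to vary like the other group. The direction turned for IFITM2, to 0.08 without siCNOT4 replicate 1 and 0.25 without siControl replicate 1. With TMM it turned for IFIT5 (-0.36), IRF1 (-0.12), HERC5 (-0.19), IFI6 (-0.002) and IFI27 (-0.003). Length removal turned IFIT2 (-0.22), IFIT5 (-0.33), IRF1 (-0.13), HERC5 (-0.11) and CMPK2 (-0.078). Quantile normalization turned IFIT2 (-0.30), IFIT5 (-0.30), IFI27 (-0.20), DDX58 (-0.036), IRF1 (-0.23), HERC5 (-0.064) and CMPK2 (-0.19). The cause was not tested.

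The replicate numbers are not stated to pair the libraries, and replicate deviations of the 2 groups correlated at 0.171 over genes. A fit with the replicate number as a block gave 3655 calls over all genes, 6 in the set and 33 among other pathway genes.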
